A study of Mus musculus with 2 samples.

Results

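The cells described were those that the authors named Suprabasal in the normal library of a single-cell RNA sequencing study of the mouse anorectal junction. There the stratified epithelium of the anal canal meets the columnar epithelium of the rectum, in a transition zone (TZ). The members were the 187 cell barcodes with this name, of 939 named cells in the normal library and 5086 in both libraries. The other named normal cells, with which they were compared, were 257 Basal cells (the deep layer of the TZ), 432 Anal Canal cells and 63 Rectum cells. The mice were of the C57/BL6J strain and carried K17CreERT2, a tamoxifen-inducible Cre driven by the promoter of Krt17, with the Rosa26-lsl-ZsGreen1 reporter. All had received tamoxifen for 2 days. The study's text gives an age of 2 to 4 months for wounded mice and of 6 to 8 weeks for its mouse work in general. Each library was made from the pooled tissue of at least 5 mice, sorted by FACS for Epcam and against CD45, CD11b, CD31 and PDGFRa. The second library came from mice of the same genotype at 1 week after a wound made with EDTA, and the normal library had no wound. With 1 library per condition there was no replicate, so no p-value is given and every interval covers counting error only. The authors had removed cells of anal glands, hair follicles and fibroblasts before naming clusters, and in the normal library had also filtered on Lgr5, Lhx2 and Tbx1, so that low levels of those genes are no finding.

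A stratified epithelium renews itself from a basal layer that is anchored to the basement membrane by integrins, laminin and collagen XVII. Cells that leave this layer become suprabasal: they stop dividing, exchange keratins, add desmosomes, and make the proteins and lipids of a barrier. In skin this programme runs through Krt1 and Krt10, in the mouth and oesophagus through Krt4 and Krt13, and in the ducts and upper part of the hair follicle through Krt17 and Krt79. Cst6 encodes cystatin M/E, a secreted inhibitor of the cysteine proteases legumain and cathepsin L that is known from the cornifying layers of the epidermis and from follicle openings.

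The 187 Suprabasal cells held 2282455 UMIs (unique molecular identifiers, each a counted mRNA molecule). A cell had between 1025 and 38652 UMIs, with a median of 11543 UMIs and 2655 detected genes. The median was 9971 UMIs in Basal, 8438 in Anal Canal and 10885 in Rectum cells. The median share of mitochondrial UMIs was 5.005% in Suprabasal cells and 4.77% in Basal cells. Suprabasal and Basal cells thus had similar mitochondrial shares, while Rectum cells had 9.26% mitochondrial UMIs. Anal Canal cells were the shallowest cluster and Suprabasal cells the deepest by median. No named barcode occurred in both libraries. Of the 93 filtered barcodes with the highest doublet scores, 7 were Suprabasal cells (3.74% of them), against 7.39% of Basal, 1.85% of Anal Canal and 9.52% of Rectum cells.

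To give an expression level, the UMIs that a gene had in all cells of a cluster were added up and divided by the total UMIs of that cluster, on a scale of 1000000 (counts per 1000000, CPM). Brackets hold exact 95% Poisson intervals of levels. The library counts the 3′ ends of mRNAs, so a level does not scale with gene length. A log2 ratio of levels has an exact binomial 95% interval. A gene is called higher or lower when this ratio was at least 1 in size and its interval did not hold 0, among genes with at least 50 UMIs over both groups. These clusters were formed from the same counts, so levels and ratios between them are a description.

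All 4 marker genes of the label were highest in the Suprabasal cells. The authors named clusters with markers in view, so this checks only that the names and the counts match. Krt17, a keratin of ducts, follicles and wounded epidermis (chromosome 11, 100256217 to 100261029, minus strand, GRCm38), had 9389 CPM [9263, 9515] in Suprabasal cells. It had 2265 CPM in Basal, 703.7 in Anal Canal and 36.9 in Rectum cells. Suprabasal and Basal cells thus both carried Krt17, with a log2 ratio of 2.05 between them. Krt79, a keratin of the follicle opening and sebaceous duct (chromosome 15, 101929332 to 101940324, minus strand), had 6213 CPM [6111, 6316] in Suprabasal, 392.2 in Basal, 49.5 in Anal Canal and 22.7 in Rectum cells. Nectin4, which encodes an adherens junction protein (chromosome 1, 171370099 to 171388598, plus strand), had 130.6 CPM [116.2, 146.3] in Suprabasal, 15.2 in Basal, 43.8 in Anal Canal and 7.10 in Rectum cells. It was the marker nearest to the Anal Canal cells, with a log2 ratio of 1.57 over them and 3.11 over Basal. Cst6 (chromosome 19, 5344705 to 5349574, minus strand) had 87278 CPM [86895, 87662] in Suprabasal, 1437 in Basal, 231.0 in Anal Canal and 198.8 in Rectum cells. A single gene therefore supplied 8.73% of all mRNA molecules counted in the Suprabasal cells.

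Over the other named cells together, the log2 ratio was 7.08 [7.04, 7.12] for Cst6, 5.23 [5.14, 5.31] for Krt79, 2.99 [2.95, 3.02] for Krt17 and 2.10 [1.84, 2.35] for Nectin4. All 4 were called higher, as were 4.92% of the 9544 genes compared. To compare shares of cells at 1 depth, each cell was thinned to 2000 UMIs, which left out 4 Suprabasal, 2 Basal, 35 Anal Canal and 3 Rectum cells. Krt79 then had a UMI in 87.4% of Suprabasal cells [81.7, 91.9], against 22.0% of Basal, 7.05% of Anal Canal and 6.67% of Rectum cells (before thinning 93%, 40.1%, 19% and 23.8%). Krt17 had a UMI in 96.7% of Suprabasal cells, 82.7% of Basal, 35.8% of Anal Canal and 10.0% of Rectum cells (98.4%, 91.8%, 59.5% and 38.1% before). Nectin4 had a UMI in 22.4% of Suprabasal, 1.57% of Basal, 8.06% of Anal Canal and 0 of 60 Rectum cells [0, 5.96] (64.7%, 9.73%, 23.6% and 7.94% before). The last share was 1.67% when the thinning was repeated with another random seed. Cst6 had a UMI in 95.6% of Suprabasal cells and in 52.2%, 41.3% and 48.3% of Basal, Anal Canal and Rectum cells (98.9%, 90.3%, 83.8% and 82.5% before). Anal Canal and Rectum cells carried Cst6 at like shares and levels. Free RNA was not measured, so neither is read as expression.

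**Figure D1:**
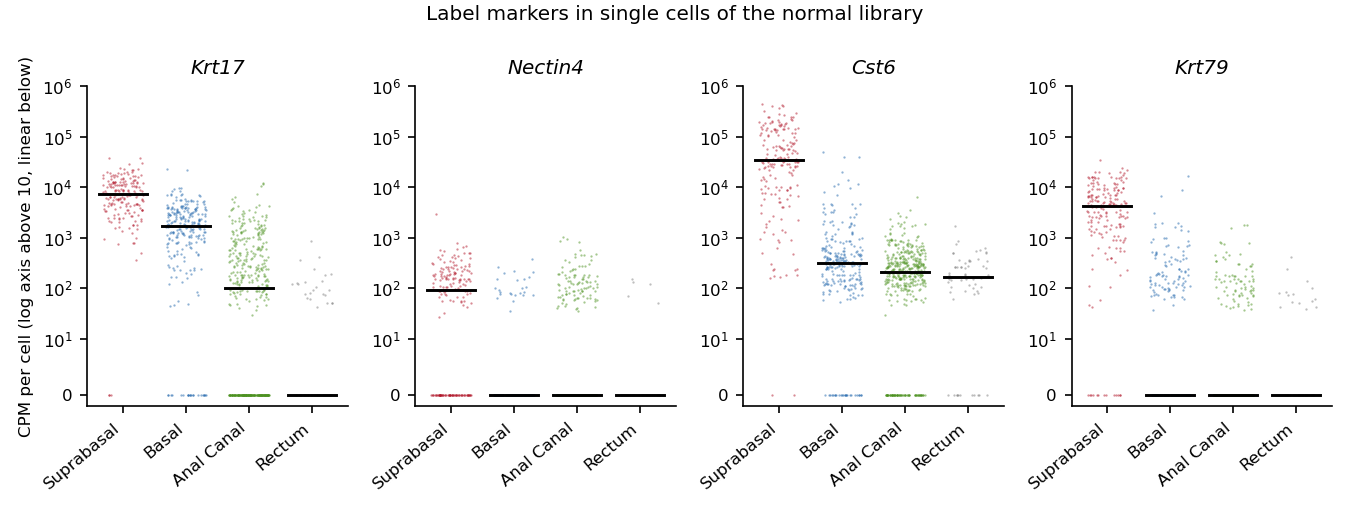
Level of each label marker in every named cell of the normal library (CPM per cell on a log axis above 10 and a linear axis below; each point is 1 cell, and the bar is the median of the cluster). The Suprabasal median was 34588 CPM for Cst6, 7270 for Krt17, 4164 for Krt79 and 90.4 for Nectin4, each above the median of every other cluster.

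The single cells overlapped between clusters for all 4 markers. For Krt17 the Suprabasal cells ran from 0 to 37680 CPM with a median of 7270, and 8 Basal cells lay above that median. For Krt79 they ran from 0 to 34043 CPM with a median of 4164 and 13 cells at 0, and 3 Basal cells lay above the median. For Nectin4, 66 Suprabasal cells had no UMI, and 65 Anal Canal cells lay above the Suprabasal median of 90.4 CPM. Above the highest Basal cell lay 77 Suprabasal cells for Cst6 and 9 for Krt79.

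Ranked by ratio over the other named cells, the 20 leading genes with at least 100 Suprabasal UMIs included 3 kallikreins, the inhibitors Cst6 and Slpi, the defence genes Defb6 and Pglyrp4, Lipk and Krt79, beside genes of other functions. They supplied 11.2% of Suprabasal UMIs and 0.150% of those of the other cells. Each of the 20 was called higher than Basal, Anal Canal and Rectum cells separately, as were 2.07% of all genes compared, a count that the ranking itself favours. The 20th gene was Tprg with a log2 ratio of 3.92, and the next, Gpr155, had 3.79.

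Among the 20, the proteases were kallikreins, serine proteases that cleave desmosomes when cells are shed from a stratified epithelium. Klk14 had 178 UMIs in Suprabasal cells (78.0 CPM) and 0 in all other named cells, a log2 ratio of at least 7.66 against 3 UMIs over that group. Klk7 had 69.7 CPM and a log2 ratio of 7.08 [5.70, 8.98], and Klk13 had 426.7 CPM and a log2 ratio between 4.71 and 5.30. These transcripts came from few cells. Klk14 was at 0 in 171 of the 187 Suprabasal cells, 10 cells held 96.6% of its UMIs, and without the highest cell its level was 39.8 CPM. For Klk7, 10 cells held 97.5%, and for Klk13 they held 88.2%.

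Transcripts of the secreted inhibitor Slpi and of the defensin Defb6 were more abundant. Slpi, an inhibitor of neutrophil elastase, had 3551 CPM in Suprabasal, 241.8 in Basal, 11.6 in Anal Canal and 163.3 in Rectum cells (67.98 without 1 cell). Defb6, a beta-defensin, had 8540 CPM in Suprabasal, 606.7 in Basal, 165.7 in Anal Canal (28.3 without 1 cell) and 17.0 in Rectum cells. Pglyrp4, a peptidoglycan recognition protein, had 67.0 CPM and a log2 ratio of 4.44 [3.82, 5.13]. Slpi was uneven among the Suprabasal cells, with a median of 193 CPM, a highest value of 44630 and 71 cells at 0, whereas Defb6 had a median of 4024 CPM and 23 cells at 0.

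The lipid and retinoid genes of the 20 were Lipk, an epidermal acid lipase, with a log2 ratio of 5.20 [4.34, 6.19], Sdr16c6, a short-chain dehydrogenase, with 4.15 [3.63, 4.71], and Crabp2, a retinoic acid binding protein, with 3.96 [3.80, 4.12]. Psapl1, a prosaposin-like gene, had 513.5 CPM in Suprabasal and 20.7 in Basal cells. Gsdma, a pore-forming gasdermin of skin, had 110.8 CPM against 7.39 in Basal cells (4.45 without 1 cell). Gabrp, a subunit of the GABA-A receptor, had 46.0 CPM in Suprabasal and 0 UMIs in Basal and Rectum cells. Ly6g6c had 1018 CPM against 45.4 in Anal Canal cells, and AA467197 had 1808 CPM, with 616.3 in Rectum cells as its next level. Qsox1, a sulfhydryl oxidase of the secretory pathway, had 644.9 CPM and Atp6v1c2, a subunit of the proton pump, 128.4 CPM. Flt1, a VEGF receptor usually found in endothelium, had 181.8 CPM in Suprabasal, 12.9 in Basal, 2.74 in Anal Canal and 0 UMIs in Rectum cells. Cells with CD31, the product of Pecam1, had been left out in the sort. The 5 endothelial genes listed had 5.70 CPM in sum (7.02 in Basal), Pecam1 was the most abundant at 5.26, and Cdh5, Kdr and Prox1 were at 0. Several of the genes in this paragraph had no UMI in most Suprabasal cells: Lipk in 155, Gabrp in 140, Gsdma in 124, Flt1 in 112 and Sdr16c6 in 107. For Lipk, 10 cells held 69.8% of the UMIs.

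**Figure D2:**
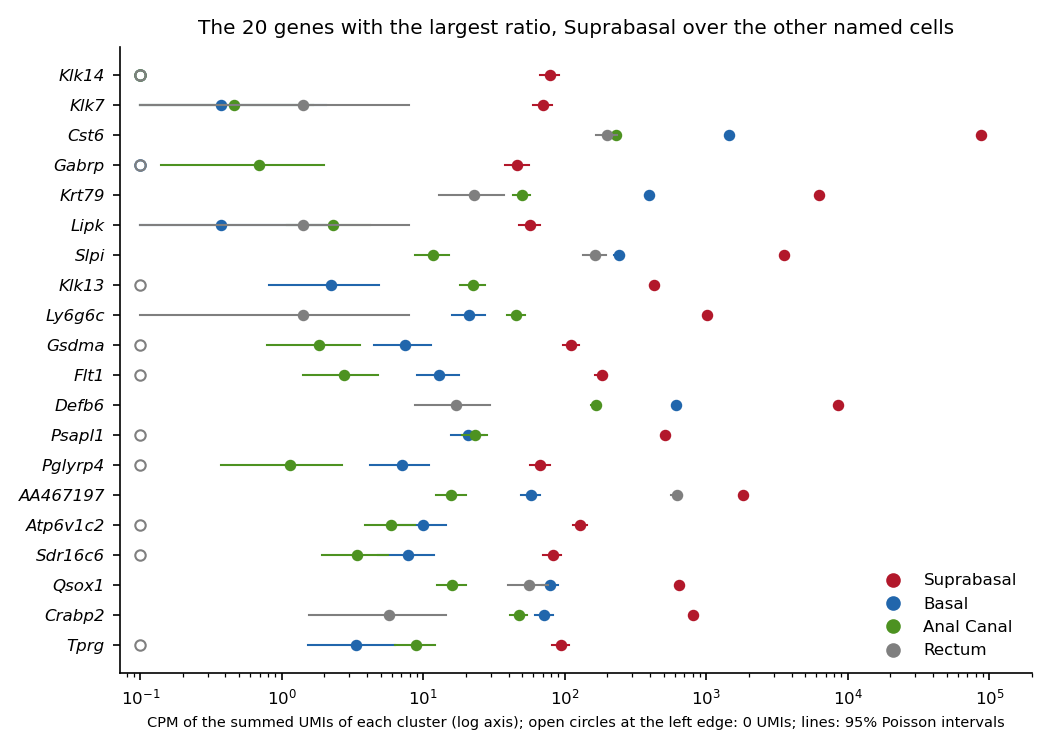
CPM of the 20 leading genes in the 4 normal clusters (log axis; points are summed levels, lines are 95% Poisson intervals, open circles at the left edge stand for 0 UMIs). The red Suprabasal point lies to the right of all others for each gene, from 46.0 CPM for Gabrp to 87278 for Cst6.

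At the other end, the 10 genes with the smallest ratio mostly belonged to 1 other cluster each. Krt13 and Krt4, the keratin pair of mucosal suprabasal cells, had 3.07 and 5.26 CPM in Suprabasal and 811.9 and 864.2 CPM in Anal Canal cells. Of the 7 mucosal suprabasal genes listed, 3 could be compared with Anal Canal cells (Krt4, Krt13 and Tgm3) and 3 were lower (17.1% of all genes), of which Krt4 and Krt13 had been picked by their ratio. Ltf (lactotransferrin), Ppbp (a chemokine), Tmprss11d (an airway-type protease), Gpnmb and S100a8 were also highest in Anal Canal cells, at 180.5, 476.8, 116.6, 123.0 and 75.3 CPM, and Suprabasal cells had at most 2.19 CPM of each. Of the 432 Anal Canal cells, 24, 31, 89, 190 and 25 had a UMI of these genes, so most of these levels came from a minority of cells. Muc3, a membrane mucin, and Lypd8 were Rectum genes, at 1076 and 3924 CPM against 0.438 and 3.94 in Suprabasal cells. Pyy, a gut peptide hormone, had the smallest ratio, at -9.06, but 1 Basal cell held 95% of the Basal UMIs of this gene. Of these 10 genes, 0 were called lower than each of the 3 other clusters, as were 3.81% of all genes. The 10th gene was Lypd8 with a log2 ratio of -6.51, and the next, Ccer2, had -6.50.

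Over all 9544 genes compared, 470 (4.92%) were called higher and 1785 (18.7%) lower in Suprabasal cells than in the other named cells. Over Basal cells these were 414 (5.81%) and 984 (13.8%) of 7123 genes, over Anal Canal cells 585 (7.25%) and 1380 (17.1%) of 8066, and over Rectum cells 783 (14.3%) and 1002 (18.4%) of 5457. The median log2 ratio of all genes was -0.36 over the other cells, -0.26 over Basal and -0.30 over Anal Canal cells, against which the list medians below are read. Without the 10 most abundant Suprabasal genes in the totals, the first median was -0.15 and higher genes made up 32.9% of the calls over the other named cells, in place of 20.8%. With the median of all genes subtracted they made up 43.4% (817 higher and 1065 lower), 50.8% over Basal in place of 29.6%, 49.8% over Anal Canal in place of 29.8%, and 55.5% over Rectum in place of 43.9%.

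The genes of the basal layer were low. Of 14 listed, 0 were higher and 12 lower than in Basal cells (13.8% of all genes were lower), with a median log2 ratio of -1.48. Against Anal Canal cells 11 were lower (17.1% of all genes), with a median of -2.04. Col17a1 (collagen XVII) had 39.4 CPM in Suprabasal, 175.6 in Basal and 283.5 in Anal Canal cells. Dst, a hemidesmosome plakin, had 18.4 CPM against 125.3 and 144.3, and Itga6, the integrin of hemidesmosomes, had 49.95 CPM against 123.5 and 176.4. Krt15, a keratin of basal and follicle cells, had 439.0 CPM against 2878 in Basal and 2493 in Anal Canal cells. Krt5 had 929.3 CPM against 2123 and 3829, but its partner Krt14 was not called, at 6877 CPM in Suprabasal, 5400 in Basal and 11880 in Anal Canal cells. Trp63, the transcription factor of stratified epithelia, was lower than in Basal cells, at 104.3 CPM against 233.3. With the median of all genes subtracted, 9 genes were lower than in Basal cells, and Krt5 and Trp63 were not among them.

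Genes of cell division went the same way, although the authors had regressed cell-cycle scores before clustering. Of 20 listed, 0 were higher and 12 lower than in Basal cells, with a median log2 ratio of -1.17, and 15 were lower than in Anal Canal cells (13.8% and 17.1% of all genes). With the median of all genes subtracted, 8 were lower than in Basal cells. Mki67, the proliferation antigen, had 23.7 CPM in Suprabasal, 70.2 in Basal and 63.7 in Anal Canal cells. Cenpf, a centromere protein, had 22.3 CPM against 88.4 and 95.9, and 14.2 CPM without the cell of highest count. Top2a was not called, at 48.2 CPM against 77.3 and 87.0, and Pcna was not called, at 58.7 CPM against 82.8 and 94.95. Transcripts of dividing cells were therefore lower but not absent.

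Of the epidermal suprabasal genes, 15 were listed and 9 could be compared with Basal cells, and these 9 were called higher (5.81% of all genes), with a median log2 ratio of 4.27. By level, though not by ratio over Basal cells, the early differentiation genes led. Krtdap, a keratinocyte differentiation peptide, had 8756 CPM in Suprabasal, 183.0 in Basal and 3797 in Anal Canal cells. Calm4, an epidermal calmodulin, had 2898 CPM against 150.1 and 1300, Dmkn (dermokine) had 2649 CPM against 521.3 and 959.4, and Sbsn (suprabasin) had 728.2 CPM against 124.2 and 168.7. Krt1 and Krt10 were the exceptions within this list. Krt1 had 448.2 CPM in Suprabasal, 17.4 in Basal and 2286 in Anal Canal cells, and Krt10 had 162.1, 48.4 and 2228 CPM. A single cell held 438 of the 1023 Krt1 UMIs, and without it the Suprabasal level was 260.7 CPM. Both were higher than in Basal and lower than in Anal Canal cells (log2 ratios of -2.35 and -3.78), while the other 8 of the 10 genes compared were higher than in Anal Canal cells (7.25% of all genes). Late cornification genes were near 0: Lor (loricrin) and Flg (filaggrin) had 1 UMI each and Flg2 and Krt2 had 0.

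Cornified envelope genes, which encode the cross-linked shell of shed keratinocytes, were split. Sprr1a had 1749 CPM in Suprabasal, 61.0 in Basal and 468.4 in Anal Canal cells, and Ivl (involucrin) had 53.0 CPM against 13.7 and 8.67. Sprr1b had 1.31 CPM against 151.6 in Anal Canal cells, Cnfn (cornifelin) had 4.38 CPM against 193.6 (117.4 without 1 cell), and Tgm3, a transglutaminase, had 0 UMIs against 66.4 CPM. Of the 11 genes compared with Anal Canal cells, 2 were higher and 5 lower (7.25% and 17.1% of all genes), and of the 4 that could be compared with Basal cells 4 were higher (5.81%). Reads of near-identical copies cannot be assigned with certainty in the Sprr2 genes, Dsg1a, Krt6a with Krt6b, and Csta1 with Stfa1.

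The keratins of wounded and stressed epithelium showed a similar split. All 4 listed, of which Krt17 is a label marker, were higher than in Basal cells (5.81% of all genes). Krt6a had 1338 CPM in Suprabasal, 181.5 in Basal and 1724 in Anal Canal cells, and after thinning it had a UMI in 70.5% of Suprabasal, 20.4% of Basal, 46.3% of Anal Canal and 3.33% of Rectum cells (86.6%, 41.6%, 60.6% and 19% before). Krt16 had 143.7 CPM against 27.0 and 502.6, and Krt6b had 21.5 CPM (11.55 without 1 cell) against 1.11 and 269.6. Of these genes, Krt17 was the only 1 that was higher in Suprabasal than in Anal Canal cells.

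**Figure D3:**
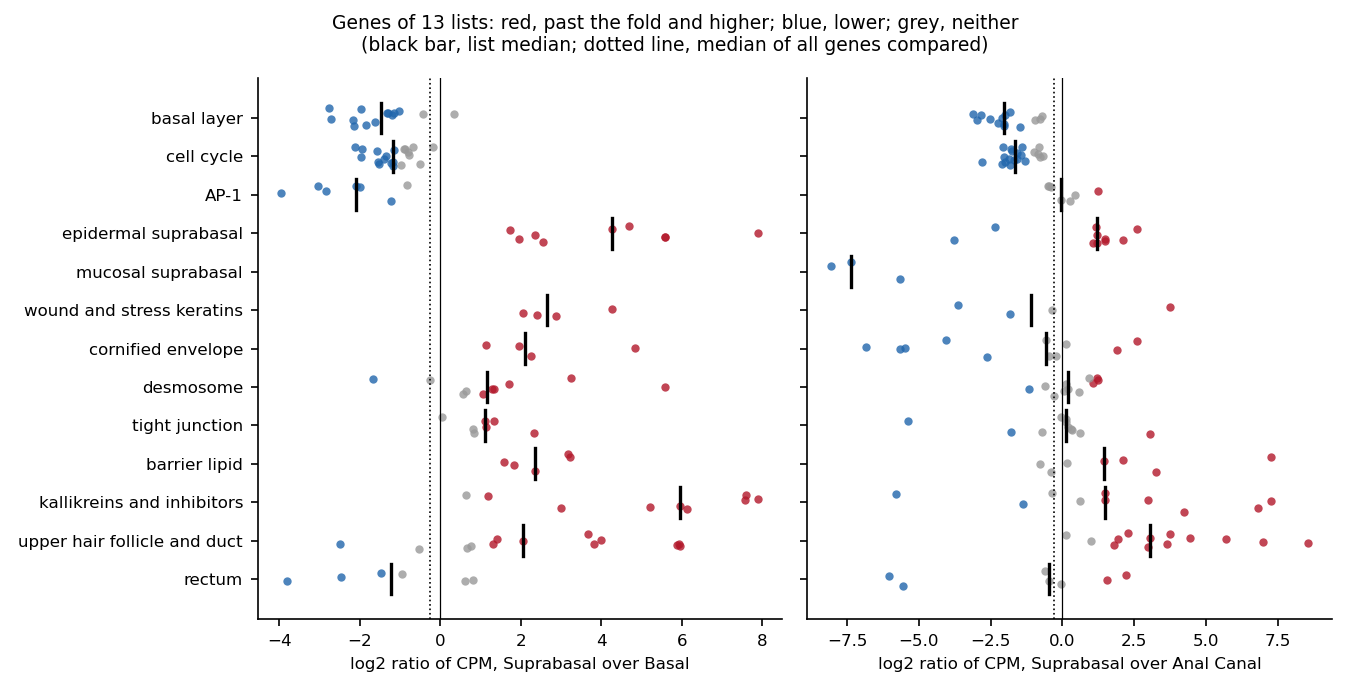
Log2 ratio of each compared gene of 13 lists, Suprabasal over Basal (left) and over Anal Canal (right), with red for higher, blue for lower and grey for not called; black bars are list medians and the dotted line is the median of all genes. Basal layer and cell cycle genes lie to the left of 0 in both panels, apart from Krt14 over Basal, and epidermal suprabasal genes lie to the right over Basal, with medians of -1.48 for the first and 4.27 for the last.

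Several genes of the upper hair follicle and its ducts were also high, although no label gives the position of these cells in the tissue. Of 13 listed, a list that holds 3 of the label markers, 9 were higher and 1 lower than in Basal cells (5.81% and 13.8% of all genes), with a median log2 ratio of 2.05. Over Anal Canal cells 11 were higher and 0 lower (7.25% and 17.1%), with a median of 3.04. The higher genes of both counts include the 3 label markers, and Defb6 and Atp6v1c2, which the ranking by ratio had picked. The choice of genes thus favours these counts and medians. Teddm3 had 570.4 CPM in Suprabasal, 9.61 in Basal and 115.7 in Anal Canal cells. Plet1, a surface protein of the follicle isthmus, had 369.3 CPM against 149.7 and 97.7. Gata6, a transcription factor of the sebaceous duct, had 33.7 CPM against 19.96 in Basal, 4.11 in Anal Canal and 46.9 in Rectum cells, and was not called over Basal. Lrig1, a stem cell marker of the follicle junction, had 17.5 CPM against 25.1 in Basal cells and was not called. Fst (follistatin) was the lower gene, at 35.5 CPM against 200.7 in Basal cells.

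Markers of most other cell types listed were low in the Suprabasal cells, apart from gland genes and a few shared ones. The sort had left out cells with CD45, CD11b, CD31 or PDGFRa, so low immune, endothelial and fibroblast markers are no finding. The 6 genes of melanocytes and Merkel cells had 0 UMIs. The 7 fibroblast genes had 16.2 CPM in sum, mostly Dcn at 9.20, and Col1a1 was at 0. The 8 immune genes had 17.5 CPM in sum, mostly Cd74 at 10.1, and Cd207 was at 0. The 8 genes of the companion layer and inner root sheath had 31.98 CPM in sum, mostly Gata3 at 21.5, against 96.9 in Basal cells. The 15 rectum genes had 889.4 CPM in sum, against 17146 in Rectum, 607.4 in Basal and 628.2 in Anal Canal cells. Of the Suprabasal sum, 727.7 were Epcam and 119.2 Krt8, while Muc13, Slc26a3 and Cdx2 were at 0. Of 7 rectum genes compared with Anal Canal cells, 2 (Krt8 and Epcam) were higher and 2 lower (7.25% and 17.1% of all genes). Of 6 compared with Basal cells, 0 were higher and 3 lower (5.81% and 13.8% of all genes). Of the sebaceous and anal gland genes, 10 were listed and had 406.1 CPM in sum, below the 740.5 of Basal and above the 320.2 of Anal Canal and 345.1 of Rectum cells. Of 7 compared with Basal cells, 1 was higher and 3 lower (5.81% and 13.8% of all genes). Of 7 compared with Anal Canal cells, 3 (Plin2, Scd1 and Cidea) were higher and 1 lower (7.25% and 17.1% of all genes). Cidea, a lipid droplet gene, had 40.3 CPM against 10.4 in Basal cells, whereas Plin2 had 60.9 CPM against 218.1 and Pparg 1.75 against 16.3. Follicle stem cell genes were not called in the comparison with Basal cells: Cd34 had 10.9 CPM against 18.9 and Sox9 132.3 against 156.0. The 10 listed had 163.4 CPM in sum, against 202.6 in Basal, 54.1 in Anal Canal and 186 in Rectum cells. Of 2 compared with Anal Canal cells, Sox9 was higher (7.25% of all genes). Of 2 compared with Rectum cells, Sox9 was higher and Tcf7l1 lower (14.3% and 18.4% of all genes).

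Around Cst6, the protease network was measured as well. Legumain (Lgmn), a target of cystatin M/E, had 6.13 CPM in Suprabasal, 13.3 in Basal and 8.67 in Anal Canal cells, and Ctsl (cathepsin L), another target, had 171.3 CPM against 163.0 and 108.0. Transcripts of the inhibitor were thus far more abundant than those of its target proteases. Ctsd, the lysosomal aspartic protease, was higher, at 1179 CPM against 403.0 in Basal and 275.3 in Anal Canal cells, and Ctsb had 655.4 CPM against 379.7 and 250.6. The transglutaminases with which this network is known to connect were low, with Tgm1 at 11.8 CPM against 73.7 in Anal Canal cells. Of the other cysteine protease inhibitors, Cst3 (cystatin C) had 839.9 CPM against 761.9 in Basal and 285.8 in Anal Canal cells, and was higher than in the latter. Csta1, with 59.1 CPM against 12.9 and 286.5, was higher than in Basal and lower than in Anal Canal cells. Stfa1 had 12.3 CPM against 8.13 and 172.1, and was lower than in Anal Canal cells. Of the 11 genes of the network compared with the other named cells, 3 were higher (Cst6 itself, Ctsb and Ctsd) and 4 lower (4.92% and 18.7% of all genes).

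The kallikrein cluster of chromosome 7 was looked at after the values of Klk14, Klk13 and Klk7 had been seen. Between 43690418 and 44229618 the annotation (GRCm38) holds 26 kallikrein genes, and 8 of them had enough UMIs to be compared with the other named cells. These were 7 higher genes (Klk14, Klk13, Klk12, Klk11, Klk10, Klk8 and Klk7) and 1 lower gene, Klk1, at 3.50 CPM in Suprabasal cells and 425 UMIs in the others. Of all genes 4.92% were higher and 18.7% lower, and the 7 include the 3 genes that had led to the cluster. Klk10 was the most abundant, with 501.2 CPM in Suprabasal, 8.13 in Basal and 63.0 in Anal Canal cells. Klk8 had 216.4 CPM against 95.4 and 77.4, and Klk12 had 28.9 CPM. Klk5 and Klk6 had 3 and 8 UMIs. The 7 higher genes lie next to each other but for Klk9, which had 1 UMI, while Klk1 lies at the far end beyond the Klk1b genes, which share sequence with it and had 0 UMIs in Suprabasal cells. Spink5, which encodes the kallikrein inhibitor LEKTI, had 707.6 CPM in Suprabasal, 2.96 in Basal and 249.7 in Anal Canal cells. It was at 0 in 115 of the 187 Suprabasal cells, and 10 cells held 59.5% of its Suprabasal UMIs. Serpinb2, a protease inhibitor of the serpin family, had 2.63 CPM against 147.0 in Anal Canal cells.

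Among junction genes, several of the desmosomes, the contacts that hold suprabasal keratinocytes together, were high. Of 10 desmosome genes compared with Basal cells, 6 were higher and 1 lower (5.81% and 13.8% of all genes), with a median log2 ratio of 1.17. Of 11 compared with Anal Canal cells, 3 were higher and 1 lower (7.25% and 17.1% of all genes), with a median of 0.19. Dsp (desmoplakin) had 916.1 CPM in Suprabasal, 281.3 in Basal and 390.5 in Anal Canal cells, and Dsg1a, the desmoglein of upper layers, had 53.4 CPM, 0 UMIs and 23.0 CPM. Dsc2 had 63.1 CPM against 6.65 in Basal cells. Dsg2, the desmoglein of simple epithelia, was the lower gene, at 14.5 CPM against 46.2. Of 11 adherens junction genes, the label marker Nectin4 was the only 1 called over the other named cells (4.92% of all genes were higher), and its relatives Nectin1 (85.9 CPM against 49.9 in Basal) and Nectin2 (32.4 against 20.7) were not called. Of the tight junction genes, Cldn1, the claudin of the skin barrier, had 99.5 CPM against 45.5 in Basal and 12.1 in Anal Canal cells, and Cldn4 had 102.1 CPM against 20.3 and 81.3. Of 7 compared with Basal cells, 4 were higher and 0 lower (5.81% and 13.8% of all genes). Of 11 compared with Anal Canal cells, 1 (Cldn1) was higher and 2 lower (7.25% and 17.1%). Of 13 compared with the other named cells, 1 (Cldn1) was higher and 4 lower (4.92% and 18.7%). Cldn7 and Cldn3, claudins of simple epithelia, had 1.31 and 10.1 CPM against 921.6 and 454.4 in Rectum cells.

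Barrier lipid genes were higher where they could be compared with Basal cells, in 5 of 5 (5.81% of all genes). Of 7 compared with Anal Canal cells, 4 were higher and 0 lower (7.25% and 17.1% of all genes). Of 11 compared with the other named cells, 5 were higher and 1 (Degs2) lower (4.92% and 18.7% of all genes). Elovl4, which makes very long chain fatty acids of skin ceramides, had 133.6 CPM in Suprabasal, 14.4 in Basal and 13.9 in Anal Canal cells. Alox12e, an epidermal lipoxygenase, had 485.9 CPM against 161.2 and 3.196. Sptlc3, a subunit of serine palmitoyltransferase, had 42.9 CPM against 4.81 and 10.0. Alox12b and Aloxe3, lipoxygenases of the epidermal barrier, had 0 UMIs. Among defence genes beyond those ranked above, Defb1 had 1432 CPM against 549.7 and 49.5, and Lcn2 (lipocalin) had 700.1 CPM against 693.9 in Basal and 13.01 in Anal Canal cells, so that both layers of the TZ carried it alike. Of 8 defence genes compared with Basal cells 5 were higher and 0 lower (5.81% and 13.8% of all genes), and of 10 compared with Anal Canal cells 4 were higher (7.25% of all genes) and 4 lower (S100a8, S100a9, Wfdc2 and Il1rn; 17.1%). Defb6 and Slpi, which the ranking by ratio had picked, are among the higher genes of both counts.

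The AP-1 transcription factors, immediate-early genes that respond to stress and growth signals, were lower than in Basal cells. Of 7 compared, 0 were higher and 6 lower (13.8% of all genes were lower), with a median log2 ratio of -2.10. Fos had 297.9 CPM in Suprabasal, 2154 in Basal and 420.2 in Anal Canal cells, Junb had 251.9, 1080 and 259.1 CPM, and Atf3 had 37.2, 576.3 and 50.9 CPM. Against Anal Canal cells 0 of 7 were lower and 1, Jun, was higher, with 361.9 CPM against 154.3, beside 17.1% and 7.25% of all genes.

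Other regulators of stratification were mixed. Of 23 listed transcription factors compared with the other named cells, 4 were higher (Grhl1, Zfp750, Gata6 and Ehf) and 5 lower (Klf4, Ovol2, Gata3, Sox2 and Elf3), beside 4.92% and 18.7% of all genes. With the median of all genes subtracted, 6 were higher and 3 lower. Zfp750, a driver of terminal differentiation, had 38.5 CPM in Suprabasal, 8.50 in Basal and 17.8 in Anal Canal cells. In the Notch pathway, which promotes the step out of the basal layer, the receptor Notch3 had 37.7 CPM against 11.8 in Basal and 16.0 in Anal Canal cells, and the feedback target Nrarp had 118.7 CPM against 26.2 and 39.0. The ligands Jag2 and Dll1 were low, at 9.64 and 1.75 CPM against 56.6 and 24.0 in Basal cells. Of 11 Notch genes compared with Basal cells, 3 were higher and 3 lower (5.81% and 13.8% of all genes). Of 7 EGF ligands and receptors compared with the other named cells, 2 (Areg and Hbegf) were lower and 0 higher, beside 18.7% of all genes lower, and the 15 ribosomal protein and elongation genes were not called, with a median log2 ratio of -0.50.

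Among the Suprabasal cells, Cst6 had the largest variance over mean, a measure that grows with the level of a gene. It ran from 0 to 439677 CPM, or 44.0% of the UMIs of a cell, with a lower quartile of 8840, a median of 34588 and an upper quartile of 117807 CPM. In 52 cells it was above 10% of all UMIs, 77 cells lay above the highest Basal cell, and 19 cells held 51.4% of all Cst6 UMIs of the cluster. After thinning, the variance of Cst6 over its mean was 222, against a median of 1.36 over 446 genes with a mean of at least 0.5 UMIs. Slpi (28.4), Defb6 (25.8), Klk10 (17.0), Apoe (14.3), Krtdap (13.1) and Krt79 (12.2) were also among the 10 highest by this measure, with 3 mitochondrial genes and Cst6. The first principal component of the cells held 6.35% of the variance over 4311 genes. It ran from Cst6, Krtdap, AA467197, Defb6 and Slpi at one end to S100a6, Krt5, Calm2, Ftl1 and Tubb5 at the other. Its correlation was -0.39 with the log of the total UMIs and 0.39 with the mitochondrial share, whose part in it was not tested.

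With Cst6 left out of the totals and each cell thinned, the genes that went up most with the Cst6 share across 183 cells were Ly6g6c (Spearman's rho 0.71), AA467197 (0.70), Sprr1a (0.65), the kallikrein inhibitor gene Spink5 (0.65), Krtdap (0.62), Cpe (0.59), Fam25c (0.58), Krt79 (0.54), Psapl1 (0.54) and Defb6 (0.52). Krt17 was the 14th, at 0.50. The genes that went down most were Krt5 (-0.56), S100a6 (-0.49), the metallothionein gene Mt1 (-0.44) and Rps6 (-0.42), of 484 genes. Krt14, Krt6a and Apoe had no clear relation, at 0.02, 0.13 and 0.01. The differentiation gene Krt1 went the other way, at -0.20. At the low end, 12 of the 187 cells had no more Cst6 than the Basal median of 318.7 CPM. These 12 held 89.5 CPM of Krt79 and 117.4 of Defb6 against 6734 and 9256 in the other 175, and 2718 CPM of Krt5 and 2450 of Krt15 against 777.2 and 268.1. The 12 cells had a median of 16976 UMIs, against 11365 in the other 175. These are descriptions over cells of 1 library that share depth and composition, and the Cst6 share itself had a rho of 0.20 with the total UMIs, -0.13 with the mitochondrial share and -0.29 with the number of other genes detected.

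**Figure D4:**
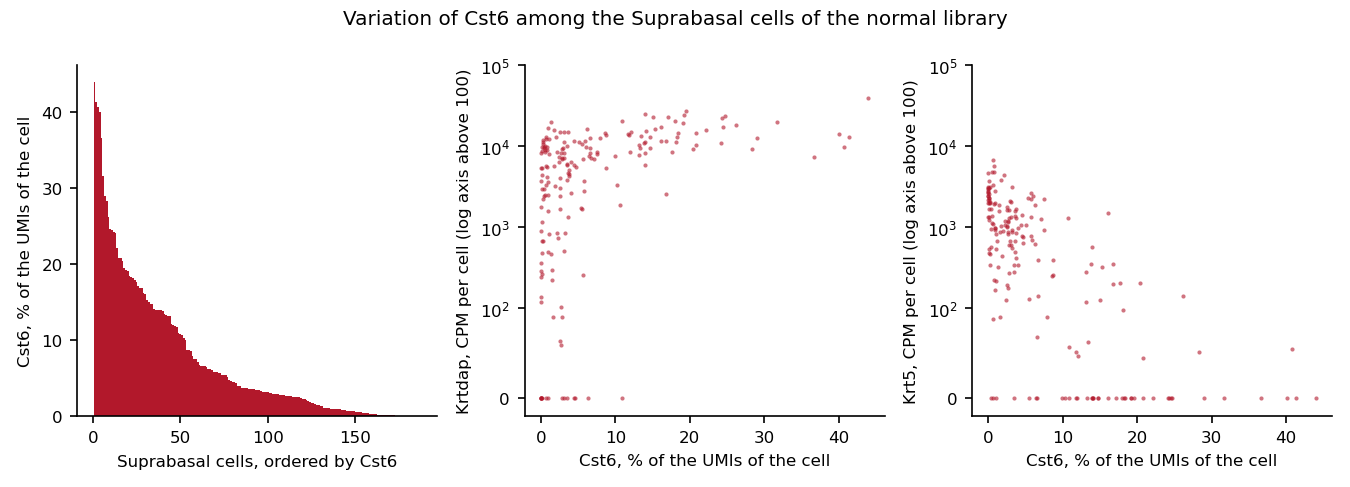
Cst6 in the Suprabasal cells: share of the UMIs of each cell, in descending order (left), and the level of Krtdap (middle) and Krt5 (right) in the same cells against that share (CPM per cell on a log axis above 100; each point is 1 cell). The share ran from 0 to 44.0%, and after thinning its rank correlation was 0.62 with Krtdap and -0.56 with Krt5.

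The promoters of genes that moved with Cst6 are shown because each of these genes went up with the Cst6 share over the same cells. Of the 10 genes that went up most, 8 had an entry in the RefSeq promoter sequences (GRCm38.p6), and 5 of these are printed, 4 with a motif and 1 without. The 150 bases before each start were searched on both strands for 2 motifs, and matches, which did not overlap, are in capitals. The first was TATAAA, a sequence of many promoters just before the start. The second was TGANTCA, the core of AP-1 sites. The letters of the first were found in 4 of the 8 and in 7.57% of all 32851 promoters of that length, and those of the second in 5 of the 8 and in 4.24%. Bases next to the start that an annotated exon covers are left off, and each sequence is written 5′ to 3′ on the strand of its gene.
Ly6g6c, chr17:35067175-35067324, plus strand: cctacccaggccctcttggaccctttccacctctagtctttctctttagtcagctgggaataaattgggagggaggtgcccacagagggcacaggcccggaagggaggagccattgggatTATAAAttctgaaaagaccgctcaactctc
Sprr1a, chr3:92485896-92486031, minus strand: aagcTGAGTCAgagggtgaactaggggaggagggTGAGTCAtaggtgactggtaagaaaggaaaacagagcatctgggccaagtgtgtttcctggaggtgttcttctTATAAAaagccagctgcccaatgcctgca
Krtdap, chr7:30787755-30787895, plus strand: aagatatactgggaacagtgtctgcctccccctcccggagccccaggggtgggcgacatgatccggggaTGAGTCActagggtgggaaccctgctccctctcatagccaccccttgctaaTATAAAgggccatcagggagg
Psapl1, chr5:36203871-36204020, plus strand: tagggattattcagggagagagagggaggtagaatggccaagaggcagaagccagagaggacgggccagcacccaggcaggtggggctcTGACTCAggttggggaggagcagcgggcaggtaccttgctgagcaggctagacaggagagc
Krt79, chr15:101940325-101940474, minus strand: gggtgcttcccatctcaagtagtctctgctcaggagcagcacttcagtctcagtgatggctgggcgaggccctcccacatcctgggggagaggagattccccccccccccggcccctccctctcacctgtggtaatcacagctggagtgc
The first motif of Ly6g6c lies 30 bases before its start, as does that of Krtdap, whereas Krt79 and Defb6 had neither motif in this window. Of the 20 genes ranked by ratio, 15 had an entry, and each motif was found in 2 of them (13.3%). The 2 with the second motif, AA467197 and Psapl1, belong to both sets of genes, so the sets are not independent. The 8 genes were picked from these same data and all promoters are not a matched background, so the shares show no enrichment. A match of letters is a description and shows no bound factor.

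The Suprabasal cells of the wounded library gave a second set of values that had not chosen these genes, from 1032 cells in 1 library, which were also named after clustering. Their levels were 53234 CPM for Cst6, 7100 for Krt17, 3509 for Krt79 and 82.0 for Nectin4, each the highest of the 6 wounded clusters, as was the case for 9.54% of 12654 genes. Of the 20 leading genes, 20 were called higher than in the wounded Basal cells, as were 8.54% of all genes, and 19 were higher than in all other wounded cells together (5.60% of all genes). The exception was Sdr16c6, with 52.0 CPM in Suprabasal and 53.8 in Regeneration cells, a wounded cluster. Nectin4 was not called over wounded Basal cells, at 45.7 CPM there and a log2 ratio of 0.85 [0.65, 1.05]. The wounded cells named Basal were unlike the normal ones in their keratins, as given below. Flt1 kept its place, at 102.6 CPM in Suprabasal and 0.697 in wounded Basal cells, and Defb6 had 1982 CPM against 44.4.

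Some wounded Suprabasal values differed in their relation to Basal. The wounded Basal cells held 2473 CPM of Krt1, 1987 of Krt10, 1443 of Krt13 and 756.5 of Krt4, each of which was at most 48.4 CPM in the normal Basal cells. Of all wounded clusters, Basal had the highest level of each of these keratins, and also of Gpc3, Ltf and Ppbp. In the normal library these keratins were highest in Anal Canal cells. The cells named Basal thus differed between the 2 libraries, so a ratio over Basal does not compare like with like between them. Krt1 had 98.7 CPM and Krt10 88.7 CPM in wounded Suprabasal cells, below the wounded Basal cells and below the normal Suprabasal levels of 448.2 (260.7 without 1 cell) and 162.1 CPM. Of the 10 genes with the smallest ratio, 7 were called lower than in wounded Basal cells (9.19% of all genes), 1 (Lypd8, log2 ratio 1.11 [0.88, 1.34]) was called higher, and 10 lower than in all other wounded cells (14.8%). Against the 4 wounded clusters other than Basal, an alternative chosen after seeing the data, 6 of the 10 were lower. The headers name Cell Ranger 3.1.0 for the normal and 4.0.0 for the wounded library, and condition, pool and software cannot be told apart between them.

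**Figure D5:**
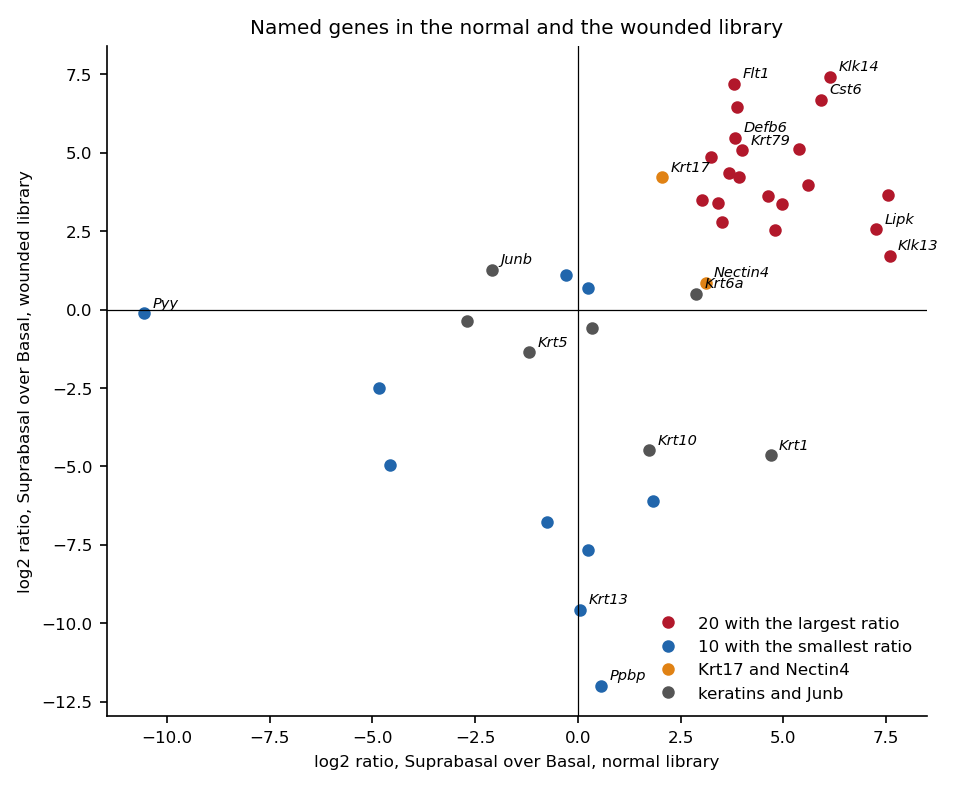
Log2 ratio of Suprabasal over Basal cells in the normal (horizontal) and the wounded library (vertical), for the 20 genes with the largest ratio (red), the 10 with the smallest (blue), Krt17 and Nectin4 (orange), and keratins with Junb (grey). All 20 red points lie above 0 on both axes, while Krt1 and Krt10 lie above 0 in the normal library (4.69 and 1.74) and below it in the wounded library (-4.65 and -4.49). The cells named Basal differed in these keratins between the libraries, so the axes do not have a like denominator.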

How the data were processed

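Anorectal cells of the normal library were studied with the UMI counts that the authors deposited, made with Cell Ranger 3.1.0 on mm10 and not normalized. The authors also deposited a table of 939 named cells with values on the natural log scale. Once 1 is subtracted from their exponential, 100% of values are whole numbers (tolerance 1e-06). These are not the counts, and how they arose is not given in the sources used here. The names came from this table and the levels from the counts. The submitters' processing notes name Seurat 3.2.2. Per the study's methods, cells with 200 to 5000 genes and under 25% mitochondrial counts were clustered.

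Sums, exact intervals (scipy 1.17.1) and thinning (random seed 1) were computed in Python 3.11.15, and Scrublet was run in scanpy 1.11.5. It called 2 doublets by its own threshold, so that the 6% of barcodes with the highest scores were marked instead, and they were kept in the main values.

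The genes named are the label markers, the 20 largest and 10 smallest ratios (at least 100 UMIs), the 10 most abundant and 10 most variable genes, 5 at each end of the first component, those the study names for these cells, and members of 28 lists. Members and lists were chosen with earlier results of these data known. No test was made with 1 library per condition. A group at 0 UMIs was set to 3 UMIs for a bound. Alternatives to the totals, filters, thresholds and cells were run.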

Additional observations from a re-analysis of the deposited data

Results flagged for a closer look

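Krt1, Krt10 and Junb had a ratio of Suprabasal over Basal cells that pointed in opposite directions in the 2 libraries. The log2 ratio was 4.69 in the normal and -4.65 in the wounded library for Krt1, 1.74 and -4.49 for Krt10, and -2.10 and 1.26 for Junb. Without the Suprabasal cell of highest Krt1 count, the normal ratio of Krt1 was 3.91. With 1 library per condition this difference was not tested. The cells named Basal were also not alike: the wounded ones had the highest Krt1 and Krt10 of all wounded clusters. The level in Suprabasal cells moved less than the level in Basal cells: Krt10 had 162.1 CPM in normal and 88.7 in wounded Suprabasal cells, against 48.4 and 1987 in Basal cells, and Junb had 251.9 and 254.0 against 1080 and 106.1.

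The reporter transcript ZsGreen1, which is outside the comparisons above, had 11 UMIs in Suprabasal cells (4.82 CPM), against 4.81 CPM in Basal, 4.34 in Anal Canal and 0 UMIs in Rectum cells.

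Of the 610 barcodes without a name that passed the filters of the study, 1 lay above the Suprabasal median of Cst6, 8 above that of Krt79 and 2 above that of Defb6, with a highest Cst6 value of 67475 CPM.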

How the results depend on the processing

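The marker ratios kept their direction under every alternative run. Of 141 alternative values, 93 differed from the reported ones by less than their interval or 1.5 times, and 48 moved. The balance of calls turned in some. Over Rectum, 783 higher and 1002 lower became 884 and 791 without the 10 most abundant genes in the totals. With the median of all genes subtracted they were 927 and 742, and over Basal 613 and 594 in place of 414 and 984. Over the other named cells, Krt17, Cst6 and Krt79 had log2 ratios of 2.93, 6.70 and 5.51 with the mean of per-cell CPM, 3.19, 7.28 and 5.43 without the 10 most abundant genes in the totals, 3.09, 7.23 and 5.33 without the cells of highest doublet score, and 2.87, 6.67 and 5.33 with the deposited natural-log table. With the 3 clusters weighted equally Krt17, Nectin4, Cst6 and Krt79 had 3.23, 2.57, 7.13 and 5.33, and with the median of all genes subtracted, an alternative chosen after seeing the data, 3.34, 2.45, 7.43 and 5.58. Counts of genes higher and lower over the other named cells became 817 and 1065 after that subtraction, 230 and 695 with at least 200 UMIs, and 137 and 590 with a log2 ratio of at least 2. Over Basal they were 162 and 286 with 200 UMIs and 145 and 187 with a log2 ratio of 2, with 594 lower after the subtraction and 1523 lower with at least 20 UMIs. Over Anal Canal they were 229 and 522, then 222 and 375, with 861 lower after the subtraction. Over Rectum they were 280 and 186, then 477 and 384, with 1870 lower at 20 UMIs. Stricter minimums leave fewer genes to call. Thinned to 4000 UMIs, Krt17 had a UMI in 99.4% and Nectin4 in 38% of Suprabasal cells. Without thinning Nectin4 had 64.7%, Cst6 98.9% and Krt79 93%. The variance over mean of Cst6 was 451 at 4000 UMIs, and 9 of the 10 most variable genes were shared. No paired analysis was possible because no result comes from a test and each condition is 1 library, so no replicate could be left out either. After seeing the data, named levels were also computed without the cell of highest count. Levels of a few UMIs, as for Klk5 or Lor, are set by depth, and variation between mice was not measured.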
